A study of Mus musculus with 12 samples.

Results

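The 10 genes described here mark germ cells and the step by which spermatogonia begin to differentiate. They are *Kit*, *Stra8*, *Sohlh1*, *Sohlh2*, *Dmrt1*, *Dmrtb1*, *Rarg*, *Ddx4*, *Dazl* and *Uchl1*. The list is one of gene names, set without a threshold on peak values, and all 10 were found in the RefSeq gene table of GRCm38.p6, the assembly behind mm10, among 21468 protein-coding genes with a known start. H3K36ac had been profiled by ChIP-seq at postnatal day 5 (Pnd 5), with 50000 cells enriched for spermatogonia going into each library in mice of a single inbred background. WT mice gave 3 samples and *Sirt7*-/- mice, which lack the deacetylase SIRT7 in every cell, gave another 3, with 1 mouse behind each and replicate numbers 2, 3 and 4 in both genotypes. The cells were enriched by plating, so residual somatic cells were possible. Broad peaks had been called by the authors separately for every sample, with that sample's input as control, and the lists give each peak's position and its fold over input.

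Spermatogonia leave the undifferentiated state under retinoic acid, which acts through nuclear receptors such as RARG and induces *Stra8* and *Kit*. SOHLH1 and SOHLH2, a pair of helix-loop-helix factors, promote this step, while the DM-domain factors DMRT1 and DMRTB1 govern the passage between mitosis and meiosis. DDX4, DAZL and UCHL1 are widely used markers of germ cells, and the first 2 bind or remodel RNA. H3K36ac, acetylation of lysine 36 of histone H3, is a mark found mainly at promoters and is a substrate of SIRT7.

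The lists differed in length before any gene was considered. They held 906, 64 and 294 peaks in WT replicates 2, 3 and 4, and 2840, 2045 and 2591 in the *Sirt7*-/- replicates of the same numbers (two-sided exact permutation test of the means, p = 0.1, which is the lowest value possible with 3 samples a group). WT replicate 3 stood apart with its 64 peaks. A promoter peak was called where any base of a peak lay within 3000 bp of the gene start. By that rule 4.38, 0.317 and 1.35% of protein-coding starts had a peak in WT replicates 2, 3 and 4, and 13.2, 9.73 and 11.7% in the *Sirt7*-/- replicates. The means were 2.02 ± 2.11% in WT and 11.6 ± 1.74% in *Sirt7*-/- (SD, n = 3 each, exact permutation test, two-sided, p = 0.1). *Sirt7* itself had no promoter peak in any of the 6 samples, and a peak list cannot check the deletion. The lists hold no read coverage, so depth at a gene is unknown here and the lack of a peak does not show the lack of the mark.

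H3K36ac peaks were called at 3 of the 10 genes, *Dmrt1*, *Dazl* and *Uchl1*, and at none of the other 7. At least 1 *Sirt7*-/- sample had a promoter peak at 3 of 10 genes, where 19.3% of all protein-coding starts did. At least 1 WT sample had one at 1 of 10, *Dmrt1*, against 5.12% of all starts. With 10 genes, a single call moves such a share by 10 percentage points, so these counts lay near the background of protein-coding genes. In at least 1 of 6 samples 3 of 10 genes were called, against 19.7%, and 7 of 10 were called in no sample, against 80.3%. *Sirt7*-/- replicates 2 and 4 each had 2 of the 10 genes called and replicate 3 had 0. WT replicate 2 had 1, and WT replicates 3 and 4 had 0. The mean was 1.33 ± 1.15 genes per *Sirt7*-/- sample and 0.333 ± 0.577 per WT sample (SD, n = 3 each), and both genotypes held samples with 0. By the study's counts of clean reads, the samples with a call, WT replicate 2 and *Sirt7*-/- replicates 2 and 4, had the most reads. WT replicate 3 came just below them, and *Sirt7*-/- replicate 3 and WT replicate 4 had the fewest. The part of read number in these calls was not tested.

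**Figure D1:**
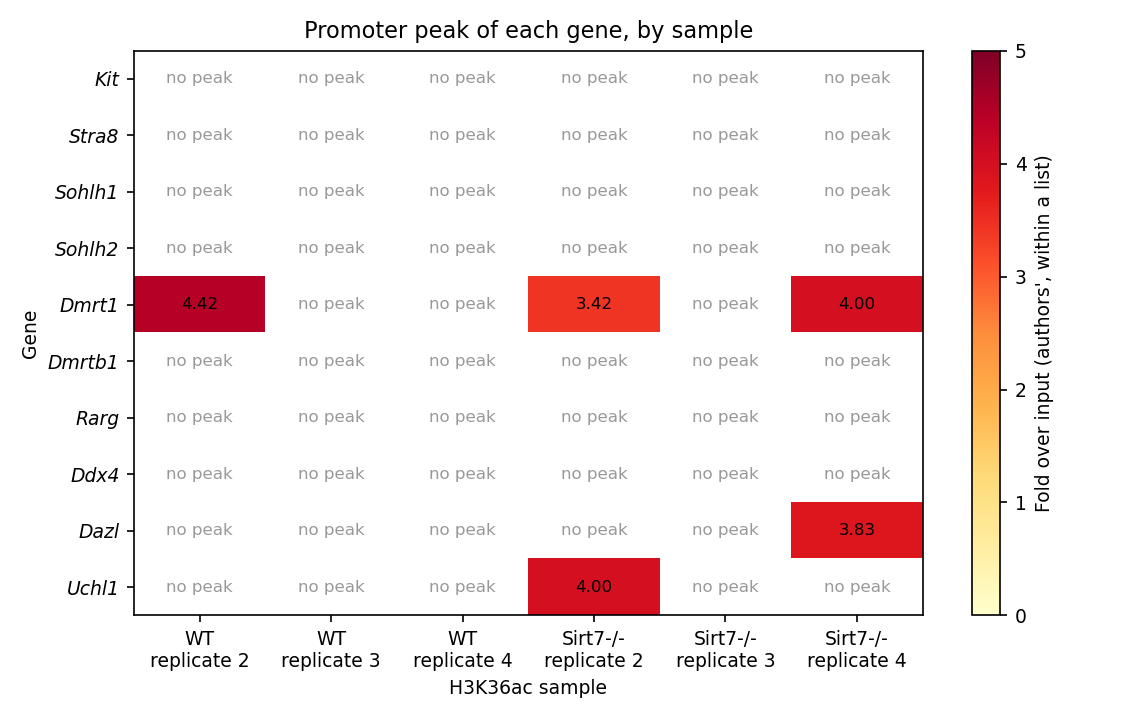
Promoter peaks of the 10 genes (rows) in the 6 H3K36ac samples (columns), with the authors' fold over input printed and coloured where a peak was called. Calls stand in 3 rows, with *Dmrt1* called in WT replicate 2 and in Sirt7-/- replicates 2 and 4, and folds of 3.42 to 4.42.

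Calls in all 3 *Sirt7*-/- samples were found at 0 of 10 genes, against 5.09% of protein-coding starts, and such calls without any in WT at 0 of 10, against 2.45%. A call in exactly 1 *Sirt7*-/- sample and none in WT was found at 2 of 10, *Dazl* and *Uchl1*, against 8.16%. Being called in at least 2 *Sirt7*-/- samples held for 1 of 10 genes, *Dmrt1*, and for 10.3% of all starts. More *Sirt7*-/- than WT samples had a peak at 3 of 10 genes, against 18.2% of all starts, and the opposite was seen at 0 of 10, against 0.508%. For each of *Dmrt1*, *Dazl* and *Uchl1* the difference between genotypes did not pass the test (two-sided p = 1 by Fisher's exact test, n = 3 each), which cannot give a p under 0.1 with 3 samples a group. Outside the promoter window, 0 of the 10 gene bodies held a peak in any sample. Of all protein-coding gene bodies, 0.452, 0.0373 and 0.182% held one in WT replicates 2, 3 and 4, and 1.48, 1.02 and 1.59% in the *Sirt7*-/- replicates, or 2.55% in at least 1 of 6 samples.

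*Dmrt1*, the transcription factor that holds spermatogonia in mitosis, was the gene of the group called most often. It lies on the plus strand of chromosome 19 of mm10, from 25505618 to 25604328. The peak of WT replicate 2 ran from 25505740 to 25506655, 916 bp, with a fold of 4.42 over input. In *Sirt7*-/- replicate 2 it ran from 25505906 to 25506809, 904 bp, with a fold of 3.42. In *Sirt7*-/- replicate 4 it was shorter, from 25505892 to 25506155, 264 bp, with a fold of 4.0. These peaks shared 250 bp, from 25505906 to 25506155, within *Dmrt1* and close to its start. Each was the only peak within 100 kb of the start in its sample. In *Sirt7*-/- replicate 3 and WT replicate 4 the nearest peaks were 1028 and 2370 kb away, and WT replicate 3 had no peak on chromosome 19. *Dmrt1* was therefore the one gene of the 10 with a peak in both genotypes.

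*Dazl* encodes an RNA-binding protein that licenses germ cells for gamete formation. It lies on the minus strand of chromosome 17, from 50279393 to 50293620, and starts at 50293620. A peak was called in *Sirt7*-/- replicate 4 alone, from 50292873 to 50293225, 353 bp wide, with a fold of 3.83. The nearest peaks in *Sirt7*-/- replicates 2 and 3 were 885 and 2319 kb from the start, and those of the WT samples 3186, 19717 and 6738 kb. The call thus rested on 1 sample.

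*Uchl1* encodes a deubiquitinating enzyme used as a marker of spermatogonia. It lies on the plus strand of chromosome 5, from 66676121 to 66687234. A peak was called in *Sirt7*-/- replicate 2 alone, from 66676417 to 66676708, 292 bp wide, with a fold of 4.0. The start of the antisense lncRNA gene *Uchl1os*, at 66676497, lies inside this peak, 376 bp into *Uchl1*, so the peak cannot be assigned to either gene. The nearest peaks in *Sirt7*-/- replicates 3 and 4 were 752 and 585 kb away, and the WT samples shared a nearest distance of 912 kb.

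**Figure D2:**
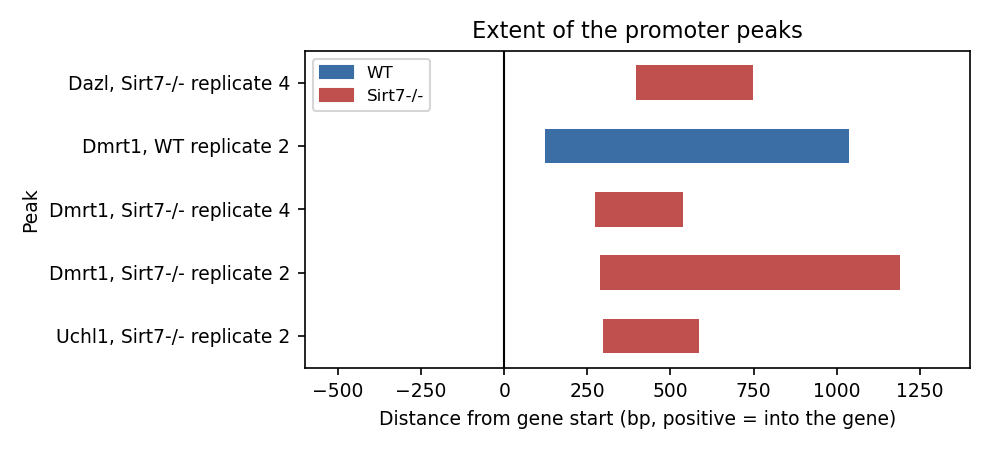
Extent of the 5 promoter peaks at *Dmrt1*, *Dazl* and *Uchl1*, as the distance in bp from the gene start (0, vertical line), with positive values running into the gene. Bars are coloured by genotype, and all 5 lie downstream of the start, beginning 122 to 395 bp into the gene.

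All 5 peaks lay wholly downstream of the gene start. The 5 peaks began 122, 288 and 274 bp into *Dmrt1* in WT replicate 2 and *Sirt7*-/- replicates 2 and 4, 395 bp into *Dazl* and 296 bp into *Uchl1*. The farthest reached 1191 bp into *Dmrt1*. Their midpoints were at 405.5 to 739.5 bp. Over all promoter peaks of protein-coding genes, the median midpoint lay 289, 284 and 311 bp downstream in the lists of WT replicate 2 and *Sirt7*-/- replicates 2 and 4, with upper quartiles of 498, 495 and 529 bp. Of the 5 midpoints, those of *Dmrt1* in WT replicate 2 (579.5 bp) and *Sirt7*-/- replicate 2 (739.5 bp) and that of *Dazl* (571 bp) were beyond the upper quartile of their own list. The gene table has no exons, so exon and intron could not be told apart.

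Within their own lists, the 5 peaks were of middling to low rank. By fold, *Dmrt1* ranked 462 of 906 in WT replicate 2, where the median fold of the list was 4.43. In *Sirt7*-/- replicate 2 it ranked 2754 of 2840, and *Uchl1* ranked 1526, in a list with a median fold of 4.05. In *Sirt7*-/- replicate 4, *Dmrt1* ranked 1453 and *Dazl* 1855 of 2591, with a median fold of 4.07. All 5 thus lay below the median fold of their list. The -log10 q was 2.04 and 2.08 for *Dmrt1* in WT replicate 2 and *Sirt7*-/- replicate 4, and 1.95, 1.67 and 1.2 for *Uchl1*, *Dazl* and *Dmrt1* in *Sirt7*-/- replicate 2, 4 and 2, in that order. Under a minimum of 2 the *Dmrt1* call was left in 1 sample of each genotype, and *Dazl* and *Uchl1* had no call. Folds belong to lists called separately and were not compared between samples.

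**Figure D3:**
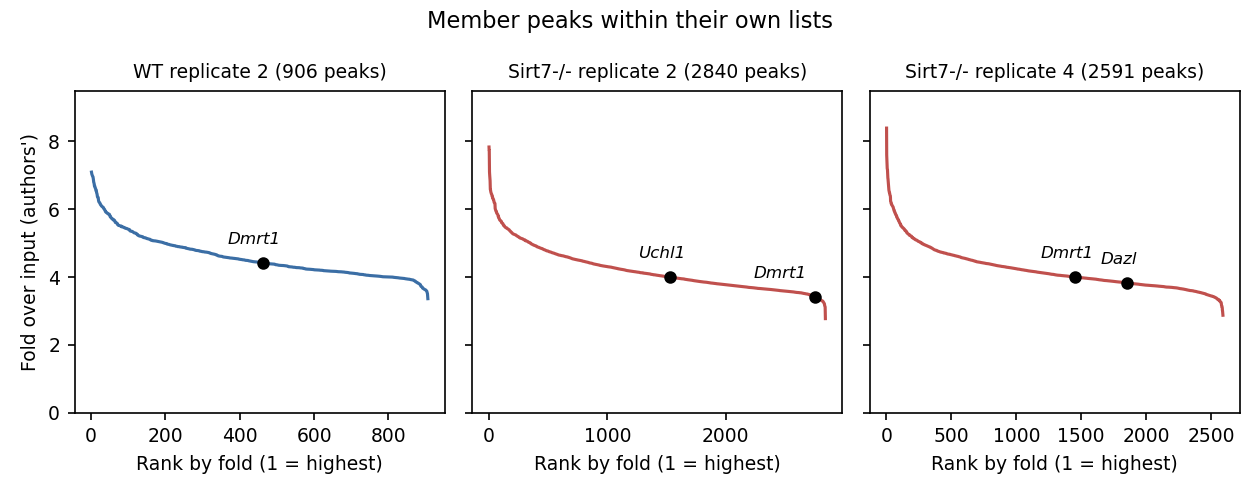
Fold over input (authors' values) of every peak against its rank by fold in the 3 lists that held a peak at one of the 10 genes, with those peaks marked by black points. *Dmrt1* sits near the middle in WT replicate 2, at rank 462 of 906, and near the end in Sirt7-/- replicate 2, at rank 2754 of 2840.

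The same calls as at *Dmrt1*, in WT replicate 2 and *Sirt7*-/- replicates 2 and 4 alone, were found at 73 other protein-coding genes. The most alike by fold rank, as the mean absolute difference in rank percentile over the 3 samples, were *Phf23* (8.92 percentile points), *Ahcyl1* (9.83) and *Csf2ra* (11.4). This likeness is a description over 3 samples.

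The other 7 genes had no peak within 3000 bp of their start or in their body in any of the 6 lists. *Kit*, the receptor for stem cell factor and the usual marker of differentiating spermatogonia, lies on the plus strand of chromosome 5 from 75574987 to 75656722. The nearest peaks to its start were 197, 530 and 531 kb away in *Sirt7*-/- replicates 2, 3 and 4, and 531, 9811 and 729 kb in the WT replicates. No other protein-coding start lies within 100 kb of it. *Stra8*, the retinoic acid-induced gene needed for entry into meiosis, lies on the plus strand of chromosome 6 from 34920163 to 34939344. The nearest peak was 257 kb away in all 3 *Sirt7*-/- samples and in WT replicate 2, and 12534 and 4872 kb away in WT replicates 3 and 4.

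*Sohlh1* lies on the minus strand of chromosome 2 from 25842995 to 25847248, and its nearest *Sirt7*-/- peaks were 467, 293 and 623 kb from the start. *Sohlh2* lies on the plus strand of chromosome 3 from 55182044 to 55209957, with *Sirt7*-/- peaks no nearer than 374 kb. In WT samples the nearest distances were 293 to 19524 kb for *Sohlh1* and 446 to 77502 kb for *Sohlh2*, the highest of each in WT replicate 3. Neither of these partner genes had a called promoter among the other protein-coding starts within 100 kb, 5 around *Sohlh1* and 3 around *Sohlh2*. The same lack of a call was seen at 80.3% of all protein-coding starts.

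*Dmrtb1*, a DM-domain gene needed for the orderly change from mitosis to meiosis, lies on the minus strand of chromosome 4 from 107676288 to 107704011. Its nearest peaks were 336 to 451 kb from the start in *Sirt7*-/- samples and 1076 to 13121 kb in WT samples. *Ddx4*, the germ cell RNA helicase also known as Vasa, lies on the minus strand of chromosome 13 from 112598333 to 112652633. Peaks came within 148, 188 and 844 kb of it in *Sirt7*-/- replicates 2, 3 and 4 and within 1163 kb in each WT sample.

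*Rarg*, the retinoic acid receptor of differentiating spermatogonia, was the gene without a peak that had peaks nearest to it. It lies on the minus strand of chromosome 15 from 102234938 to 102257522. The nearest peaks lay 22.0 kb from its start in *Sirt7*-/- replicates 2 and 3 and 53.5 kb in replicate 4, against 183, 20671 and 5797 kb in WT replicates 2, 3 and 4. They belonged to the starts of *Mfsd5*, 21.9 kb away and called in 2 *Sirt7*-/- samples, and of *Csad* and *Zfp740*, 52.5 and 54.0 kb away and called in all 3, and none of these was called in a WT sample. *Csad* and *Zfp740* start close together and share their peaks. These 3 were the only called promoters among the 25 protein-coding neighbours whose starts lie up to 100 kb from one of the 10 genes. The remaining 9 genes thus had no called neighbour. Of all protein-coding starts, 19.7% were called in at least 1 of 6 samples. *Rarg* has 8 of the 25 neighbours, while *Kit*, *Dmrt1* and *Dazl* have no protein-coding neighbour in this range. Across all protein-coding genes on a chromosome with a peak, the median distance to the nearest peak was 162, 250 and 185 kb in *Sirt7*-/- replicates 2, 3 and 4, and the medians of the 10 genes were 227, 392 and 392 kb. In WT replicates 2, 3 and 4 the medians of all genes were 571, 8352 and 2183 kb and those of the 10 genes 561, 13121 and 1440 kb, so the 10 genes lay farther from a peak in 4 samples and nearer in 2.

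Promoter sequences were examined because called promoters differed in their content of CpG. RefSeq sequences of GRCm38.p6, from 250 bases before to 50 after a transcript start, were matched for 9 of the 10 genes and for 17486 protein-coding genes, taking the start nearest to the gene start. Genes called in at least 1 *Sirt7*-/- sample had a median of 25 CpGs in these 300 bases, and genes called in none had 9. The 9 matched genes ranged from 9 to 38 CpGs with a median of 14, where all 17486 had a median of 13. To show this range, the promoters of the 2 matched genes with a peak, *Uchl1* (chr5:66675871-66676170, plus strand) and *Dazl* (chr17:50293571-50293870, minus strand), are set beside 2 without one, *Ddx4* (chr13:112652261-112652560, minus strand) and *Stra8* (chr6:34920698-34920997, plus strand). Each reads 5′ to 3′ on the strand of its gene, and capitals mark each CpG.
Uchl1: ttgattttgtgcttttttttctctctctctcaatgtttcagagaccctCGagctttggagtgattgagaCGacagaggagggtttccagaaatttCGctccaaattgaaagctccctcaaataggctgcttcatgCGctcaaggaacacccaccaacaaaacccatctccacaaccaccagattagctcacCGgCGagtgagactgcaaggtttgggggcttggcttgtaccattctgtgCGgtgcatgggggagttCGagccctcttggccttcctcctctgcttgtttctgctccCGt
Dazl: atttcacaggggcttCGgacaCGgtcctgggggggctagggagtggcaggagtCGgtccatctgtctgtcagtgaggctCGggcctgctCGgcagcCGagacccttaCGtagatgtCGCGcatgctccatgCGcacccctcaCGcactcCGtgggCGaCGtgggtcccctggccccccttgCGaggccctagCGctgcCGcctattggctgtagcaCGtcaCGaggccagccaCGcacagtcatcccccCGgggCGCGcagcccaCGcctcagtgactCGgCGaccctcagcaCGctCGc
Ddx4: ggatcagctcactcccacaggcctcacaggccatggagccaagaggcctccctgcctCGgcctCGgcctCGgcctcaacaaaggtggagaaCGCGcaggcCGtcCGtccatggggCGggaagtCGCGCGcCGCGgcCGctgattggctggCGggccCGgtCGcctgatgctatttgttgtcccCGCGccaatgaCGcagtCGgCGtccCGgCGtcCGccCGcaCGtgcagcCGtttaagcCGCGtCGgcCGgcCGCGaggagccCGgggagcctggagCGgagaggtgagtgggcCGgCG
Stra8: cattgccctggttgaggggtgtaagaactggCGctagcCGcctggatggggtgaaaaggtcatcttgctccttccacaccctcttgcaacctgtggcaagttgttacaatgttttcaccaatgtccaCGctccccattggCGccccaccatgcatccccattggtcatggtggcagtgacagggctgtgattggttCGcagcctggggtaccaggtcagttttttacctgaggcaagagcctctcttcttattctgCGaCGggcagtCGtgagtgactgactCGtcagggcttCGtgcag
*Uchl1* has 9 CpGs in this window, *Dazl* 28, *Ddx4* 38 and *Stra8* 10. The windows of *Uchl1* and *Dazl* end before their peaks, which begin 296 and 395 bp into the gene, and hold no base of them. The windows of *Ddx4* and *Stra8* lie around transcript starts 323 and 785 bp inside the gene start used for peaks, and that of *Dmrtb1* around one 19781 bp inside it.

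The called and uncalled genes of the group were not ordered by CpG number. *Ddx4*, the richest of the 9, had no peak, although 46.9% of the promoters with 30 or more CpGs had one in at least 1 *Sirt7*-/- sample and 15.6% in at least 1 WT sample. *Uchl1* had a peak with 9 CpGs, where 6.29% of the promoters with 5 to 9 CpGs had one in a *Sirt7*-/- sample. That peak also covers the start of *Uchl1os* and cannot be assigned to either gene. *Dazl*, with 28, was in the class of 25 to 29, of which 35.7% were called in a *Sirt7*-/- sample. *Kit* has 20 and *Sohlh2* 17, in classes called in 28.6% and 23.0% of cases. *Sohlh1* has 14, *Rarg* 12 and *Stra8* 10, in the class of 10 to 14, where 16.1% were called, and *Dmrtb1* has 9. A second sequence of *Dmrtb1*, around a start 20422 bp inside the gene start, has 28 and was not used for the classes. Over all promoters, the share called rose with CpG number from class to class in both genotypes.

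**Figure D4:**
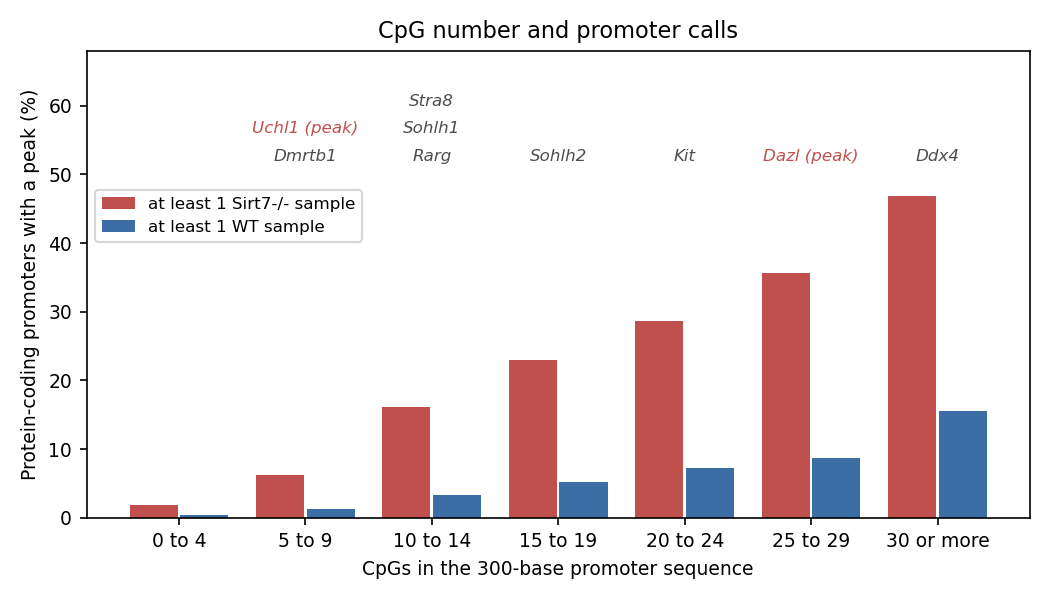
Share of protein-coding promoters with an H3K36ac peak in at least 1 Sirt7-/- or at least 1 WT sample (%), by number of CpGs in the 300-base promoter sequence, with the 9 matched genes named above their class and those with a Sirt7-/- peak in red. The share rises from 1.84 to 46.9% in Sirt7-/- and from 0.393 to 15.6% in WT, while *Ddx4* in the richest class has no peak.

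Short motifs were searched on both strands of the same 300 bases, and each match is a description of letters only. The E-box CACGTG was found in 2 of 9 genes, *Sohlh1* with 3 matches, which begin 231, 211 and 192 bases before the start, and *Ddx4* with 1, against 7.91% of the 17486 promoters. The looser E-box CANNTG, which includes CACGTG, was found in 7 of 9 and in 68.8%. AGGTCA, the core of sites bound by retinoid receptors, was found in *Stra8* (2 matches), *Rarg* and *Sohlh1*, where it overlaps a CACGTG, and in 14.5% of all promoters. ACATTGT, a core of sites bound by DMRT1, was found in *Stra8* alone, and in 2.50% of all promoters. GGCGGGA, a form of the E2F site, was found in *Ddx4*, *Kit* and *Rarg* (15% of all), and CCGCCC, the GC box, in 5 of 9 (46.3%), which in part lie at the same bases as the E2F form. The CCAAT box was found in 4 of 9 (39.2%), with 4 matches in *Stra8*, and TATAAA and the cyclic AMP element TGACGTCA in 0 of 9 (13.3% and 2.33%). The windows of *Dazl* and *Uchl1* held neither the CACGTG form of the E-box nor the retinoid receptor or DMRT1 cores.

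In the retinoic acid pathway, coregulators and retinoid X receptors were among the called genes. Of 24 other genes of the pathway, 8 had a promoter peak in at least 1 *Sirt7*-/- sample, or 33.3%, and 3 in at least 1 WT sample, or 12.5%, against 19.3 and 5.12% of all protein-coding starts. *Rxrb*, a retinoid X receptor that pairs with RARG, was called in 3 *Sirt7*-/- and 2 WT samples. The corepressor *Ncor1* was called in 3 and 1, the coactivator *Ncoa2* in 3 and 0, and the coactivator *Ncoa1* in 2 and 1. *Rara*, *Rarb* and *Rxrg* had no peak in any sample within 3000 bp of the gene start used here. By that start 2 of the 6 receptors of the family, *Rxra* and *Rxrb*, were called. *Rara* had peaks in *Sirt7*-/- replicates 3 and 4 near a further RefSeq start inside the gene.

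Most of the 32 listed genes that act in KIT signalling had a call in at least 1 *Sirt7*-/- sample, while the receptor gene *Kit* had none. Of 32, 26 had a promoter peak in at least 1 *Sirt7*-/- sample, or 81.2%, and 6 in at least 1 WT sample, or 18.8%, against 19.3 and 5.12% of all protein-coding starts. Fewer were called repeatedly. At least 2 *Sirt7*-/- samples had a call at 11 of 32, or 34.4%, against 10.3% of all starts. All 3 had one at 5 of 32, or 15.6%, against 5.09%. The adaptor *Gab2* was called in 3 *Sirt7*-/- and 2 WT samples, and the kinase *Fyn* in 3 and 1. The kinase *Map2k2* was called in 2 and 1, and the adaptor *Grb2* in 3 and 0. *Mapk3*, *Pik3cd* and *Pik3r1* were called in none. *Kitl*, the ligand of KIT, was called in *Sirt7*-/- replicate 2 alone. Most of these genes are used by many cell types, and their CpG numbers were not examined.

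**Figure D5:**
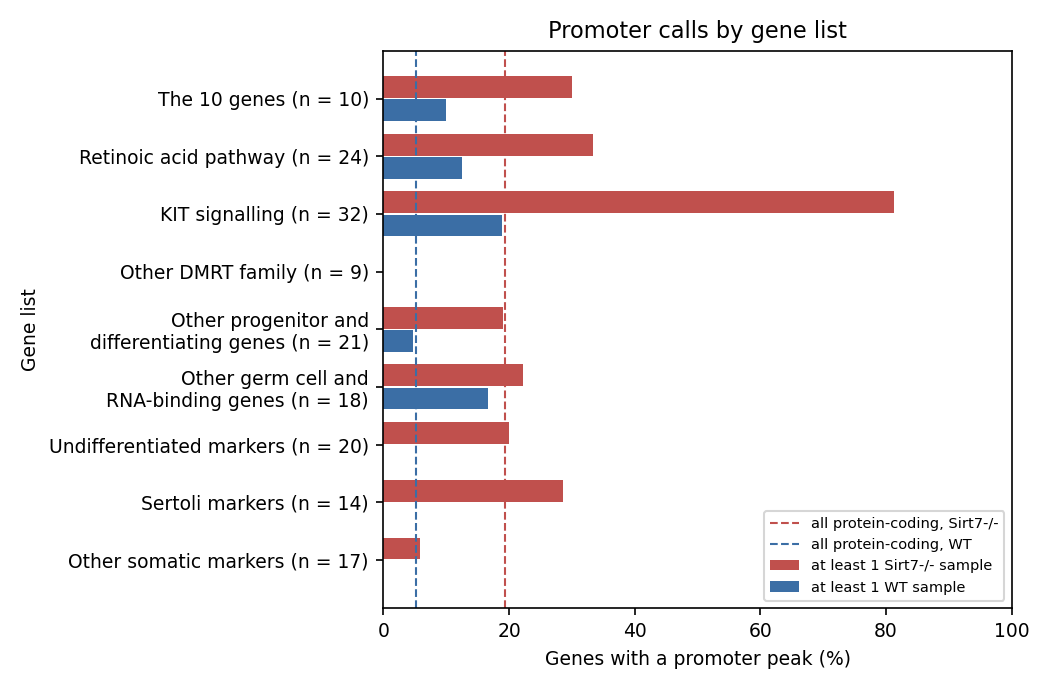
Share of genes with a promoter peak in at least 1 Sirt7-/- sample (red bars) or at least 1 WT sample (blue bars), for the 10 genes and 8 other lists, with dashed lines at the shares of all protein-coding genes (19.3 and 5.12%). KIT signalling genes reach 81.2% in Sirt7-/- and the other DMRT genes 0%.

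Apart from *Dmrt1*, no DMRT gene examined was called. None of 9 others, among them *Dmrt2* and *Dmrt3* next to it on chromosome 19 and *Dmrta1*, had a promoter peak in any sample. Of all protein-coding starts, 80.3% had none either. Of 21 other regulators and markers of progenitor and differentiating spermatogonia, 4 were called in at least 1 *Sirt7*-/- sample and 1 in WT, or 19 and 4.76%, close to the 19.3 and 5.12% of all protein-coding starts. The tubulin-binding *Stmn1* was called in 3 *Sirt7*-/- and 0 WT samples, the meiotic RNA helicase *Ythdc2* in 1 and 1, and the cyclins *Ccnd2* and *Ccna2* in 1 and 0 each. The regulators *Neurog3*, *Sox3* and *Nanos3* were called in none.

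Promoter calls were also listed for markers of the labelled cell type and of somatic cells. A call of this mark does not measure expression, so these calls cannot check the cell type. The study saw no correlation between changes in the mark and in expression. By flow cytometry it found the majority of isolated WT cells positive for PLZF, a marker of undifferentiated spermatogonia. Of the germ cell markers, *Dazl* and *Uchl1* had a peak in 1 sample each and *Ddx4* in none, and of the differentiating markers *Kit*, *Stra8* and *Sohlh1* none had one. Of 20 markers of undifferentiated spermatogonia, 4 were called in at least 1 *Sirt7*-/- sample, or 20%, and 0 in WT, where all protein-coding starts gave 19.3 and 5.12%. *Itga6* was called in 3 *Sirt7*-/- samples, and *Zbtb16*, which encodes PLZF, *Gfra1* and *Etv5* in 1 each, while *Ret*, *Bcl6b* and *Id4* were called in none. Of 14 Sertoli cell markers, 4 were called in at least 1 *Sirt7*-/- sample, or 28.6%, and 0 in WT, with *Inha* in 2 samples and *Sox9*, *Dhh* and *Vim* in 1 each, and *Wt1*, *Amh* and *Gata4* in none. Of 17 markers of Leydig, peritubular, endothelial and immune cells, *Nr5a1* was called in 1 *Sirt7*-/- sample, or 5.88% of the list, and *Star*, *Cyp11a1* and *Cyp17a1* were called in none. The part of somatic cells in any call was not tested.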

How the data were processed

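The samples were 6 H3K36ac ChIP libraries, 3 WT and 3 *Sirt7*-/-, with 6 inputs that entered only through peak calling. After trimming (Trim Galore 0.6.6) the authors mapped reads to mm10 (Bowtie2 2.4.4.1), removed duplicates, multiply mapped reads and those under a mapping quality of 30 (SAMtools 1.19.2 and Sambamba), and used MACS2 2.2.5 to call broad peaks at a cutoff of 0.1. The study found its spike-in counts comparable between samples and therefore used no spike-in factors. The deposited values are, for each peak, the authors' fold over input (a ratio), the -log10 p and -log10 q that the authors' caller gave, and the authors' score, which repeats the q in whole numbers and was not used. Depth at a gene is unknown from these lists.

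Gene bounds came from the RefSeq table of GRCm38.p6. Strand came from the RefSeq promoter table, or by symbol and chromosome from GENCODE vM39, used for strand only, for 3976 of the 21468 protein-coding genes with a start, *Dmrt1* among them, and 432 genes without strand were left out. Genotypes were compared by exact permutation and calls of single genes by Fisher's exact test, both two-sided, in Python 3.11.15 with SciPy 1.17.1. The assignment of peaks was tested on simulated data. The members, lists and tests were chosen with earlier results of these data known. Beside the 10 members, the genes named in each list are at most 4 with the most calls and the first 3 without a call (1 of these is not reported here), and *Rxra* and *Kitl* were added after their values were seen. One symbol, *Gcna*, of the germ cell list was not matched. Alternatives were other windows, other gene starts, peak midpoints, a stricter q, a minimum width, equal list lengths, a replicate block, and each sample left out.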

Additional observations from a re-analysis of the deposited data

How the results depend on the processing

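The 3 called genes of the 10 were the same in number with a promoter window of 1000 or 5000 bp, with either gene end as the start, with the peak midpoint inside the window, and with the other RefSeq starts added (the last was chosen after seeing the data). The number of genes called in more *Sirt7*-/- than WT samples fell from 3 to 0 with a -log10 q of at least 2, with a width of at least 500 bp, and with the 64 best peaks of each sample. The first 2 of these left *Dmrt1* with 1 call in each genotype, and the third left none of the 10 genes with a call. With each sample left out in turn, 2 to 3 genes were called in a larger share of the *Sirt7*-/- than of the WT samples. It was 2 without *Sirt7*-/- replicate 2, on which *Uchl1* rests, or replicate 4, on which *Dazl* rests, and in both cases *Dmrt1* was left with 1 call in each genotype, no longer more in *Sirt7*-/- by number. The mean difference ranged from 0.667 to 1.67 genes per sample. Without WT replicate 2, *Dmrt1* was called in 2 *Sirt7*-/- and 0 WT samples. Peak numbers per sample had a *Sirt7*-/- to WT ratio of 5.91, which ranged from 4.15, without WT replicate 3, to 13.9, without WT replicate 2. The ratio of called protein-coding starts was 5.73, ranged from 4.03 to 13.9 over the same samples left out, and turned to 0.920 with the 64 best peaks of each sample, which fixes the list length. The median rank of the 5 peaks was at the percentile 56.1 by fold and 59.4 by -log10 q. With the replicate number as a block, the ratios of 5.91 and 5.73 are the same by construction and the exact sign-flip p was 0.25 for each, the smallest that 3 pairs allow. Over 4238 called starts, deviations of same-numbered samples correlated at -0.0420, -0.0716 and 0.0109. Such yes or no calls showed no pairing by number, but cannot show whether same-numbered samples were handled together.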

Other observations

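*Rara*, the other main retinoic acid receptor of the testis, had peaks inside the gene and none at the start given by the gene table. It lies on chromosome 11 of mm10 from 98927800 to 98974942. A peak from 98937792 to 98938052, with a fold of 4.27, was called in *Sirt7*-/- replicate 3, and one from 98937930 to 98938210, with a fold of 4.0, in *Sirt7*-/- replicate 4. They ranked 1583 of 2045 and 1462 of 2591 by fold in their lists. Both lie just downstream of a further RefSeq start, at 98937718, about 10 kb into the gene, and no WT sample had a peak there. With the further starts counted, an alternative chosen after seeing the data, 9 of the 24 retinoic acid pathway genes were called in at least 1 *Sirt7*-/- sample in place of 8.

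Of 18 other germ cell and RNA-binding genes, 4 had a promoter peak in at least 1 *Sirt7*-/- sample and 3 in at least 1 WT sample, or 22.2 and 16.7%, against 19.3 and 5.12% of all protein-coding starts. *Pum2*, an RNA-binding repressor expressed in germ cells, was called in 3 *Sirt7*-/- samples and 1 WT sample. The RNA-binding genes *Celf1* and *Elavl1* were called in 1 *Sirt7*-/- sample each, *Celf1* also in WT replicate 3. *Taf4b*, a germ cell subunit of the general transcription factor TFIID, was called in WT replicate 2 alone. *Boll*, the DAZL relative, was called in none, and *Dazap1* had a peak in its gene body in *Sirt7*-/- replicate 4.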
